A study of Mus musculus with 9 samples.

Results

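Hyaluronan genes in this series were the 3 synthases Has1, Has2 and Has3, the hyaluronidases Hyal1 and Hyal2, the receptor Cd44 and the binding protein Tnfaip6. These 7 of 25239 gene symbols were chosen by name with their FPKM (reads per length of gene and per library total) in the 3 groups already known, so their levels and differences are a description and carry no test. The data are poly(A) RNA sequencing of primary cortical astrocytes from mouse pups at postnatal day 4, grown in medium with horse and fetal bovine serum. The groups were cells harvested 24 h (day 1) after a 3 h exposure to 200 µM hydrogen peroxide (H2O2) had been washed off, cells harvested 72 h (day 3) after the same exposure, and cells labelled Control, with 3 libraries each. The labels give no strain, sex or genotype, no harvest time for the controls, and no statement that replicates came from separate cultures. Any p-value therefore covers only how far these libraries differ among themselves, and that may be technical variation.

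Hyaluronan is a long unsulfated sugar chain of the extracellular matrix, built at the plasma membrane from the activated sugars UDP-glucuronate and UDP-N-acetylglucosamine and pushed out of the cell as it grows. In brain it forms the scaffold to which lecticans and link proteins bind, and astrocytes are among the cells that make it. Hyal2, at the cell surface, and Hyal1, in lysosomes, cut the chain into shorter pieces, CD44 is its main surface receptor, and TSG-6, the product of Tnfaip6, carries heavy chains of the inter-alpha-inhibitor family onto it.

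The synthase Has2 stood apart from the other members: it was at about 5 FPKM on day 1, more than 10 times its level on day 3 or in control. Cd44 was also higher on day 1, by less than 2-fold, and was a little above control on day 3. Hyal1 differed by less but was highest on day 3, Tnfaip6 was slightly higher on day 1, and Hyal2 overlapped between all groups. Has1 and Has3 were near the limit of detection throughout.

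Promoter sequences, 250 bases before to 50 bases after the RefSeq gene start on GRCm38.p6, were held for 5 of the 7 members, all but Has2 and Has3. Those of Cd44, Tnfaip6 and Hyal1 are shown because their day 1 libraries all lay above the control libraries. Capitals mark matches, on either strand, to any of 8 motifs: the AP-1 site TGANTCA, the CRE palindrome TGACGTCA, the GC box GGGCGG, the TEAD site GGAATG, the STAT site TTCNNNGAA, the TATA box TATAAA, the CCAAT box CCAAT and the NF-kappaB site. None of the marked matches in these 3 windows overlap matches of another motif.
Cd44 (chr2:102901616-102901915, minus strand): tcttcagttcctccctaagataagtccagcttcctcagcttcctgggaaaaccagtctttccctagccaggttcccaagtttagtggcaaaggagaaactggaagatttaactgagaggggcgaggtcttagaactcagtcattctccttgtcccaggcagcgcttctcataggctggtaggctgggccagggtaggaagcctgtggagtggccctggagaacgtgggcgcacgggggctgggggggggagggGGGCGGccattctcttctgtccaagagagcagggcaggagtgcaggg
Tnfaip6 (chr2:52037863-52038162, plus strand): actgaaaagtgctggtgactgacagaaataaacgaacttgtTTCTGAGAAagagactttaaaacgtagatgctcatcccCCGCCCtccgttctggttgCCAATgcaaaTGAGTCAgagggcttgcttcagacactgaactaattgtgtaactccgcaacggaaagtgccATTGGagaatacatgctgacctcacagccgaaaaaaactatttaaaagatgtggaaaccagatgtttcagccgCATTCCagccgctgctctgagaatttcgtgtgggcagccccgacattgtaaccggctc
Hyal1 (chr9:107576700-107576999, plus strand): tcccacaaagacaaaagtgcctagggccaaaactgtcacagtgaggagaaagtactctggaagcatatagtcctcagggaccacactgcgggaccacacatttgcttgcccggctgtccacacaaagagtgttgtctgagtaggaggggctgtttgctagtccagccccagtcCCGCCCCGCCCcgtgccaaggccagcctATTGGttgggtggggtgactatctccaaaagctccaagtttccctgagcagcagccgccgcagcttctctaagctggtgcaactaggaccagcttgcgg
In the Tnfaip6 window an AP-1 match began 142 bases before the gene start, a motif held by 7.81% of the 32851 promoter windows in the table, and a STAT match began 209 bases before it (8.30% of windows). That window also held a GC box, a TEAD match (14.7% of windows) and a pair of CCAAT boxes (37.4%). The Cd44 window held only a GC box, beginning at base 4 of the gene, a motif of 35.7% of windows. Hyal1 held a pair of GC boxes that overlap each other and a CCAAT box. No match says only that these letters are not in these windows.

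Each library held between 23032594 and 38414668 reads, worked out from the deposited FPKM, and the ribosomal precursor Rn45s took 7.67% to 11.9% of them. For a gene of 2 kb, 1 FPKM stood for 46.1 to 76.8 reads. A difference is in log2(FPKM + 0.1), with libraries first rescaled to each other, and comes with the SE of the fit across all 12611 genes whose mean was at least 1 FPKM. This scale understates changes of low genes. Has1 and Has3 lay under that filter and have levels only. Has2 passed it through day 1 alone, so its difference is a condition of its passing.

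**Figure D1:**
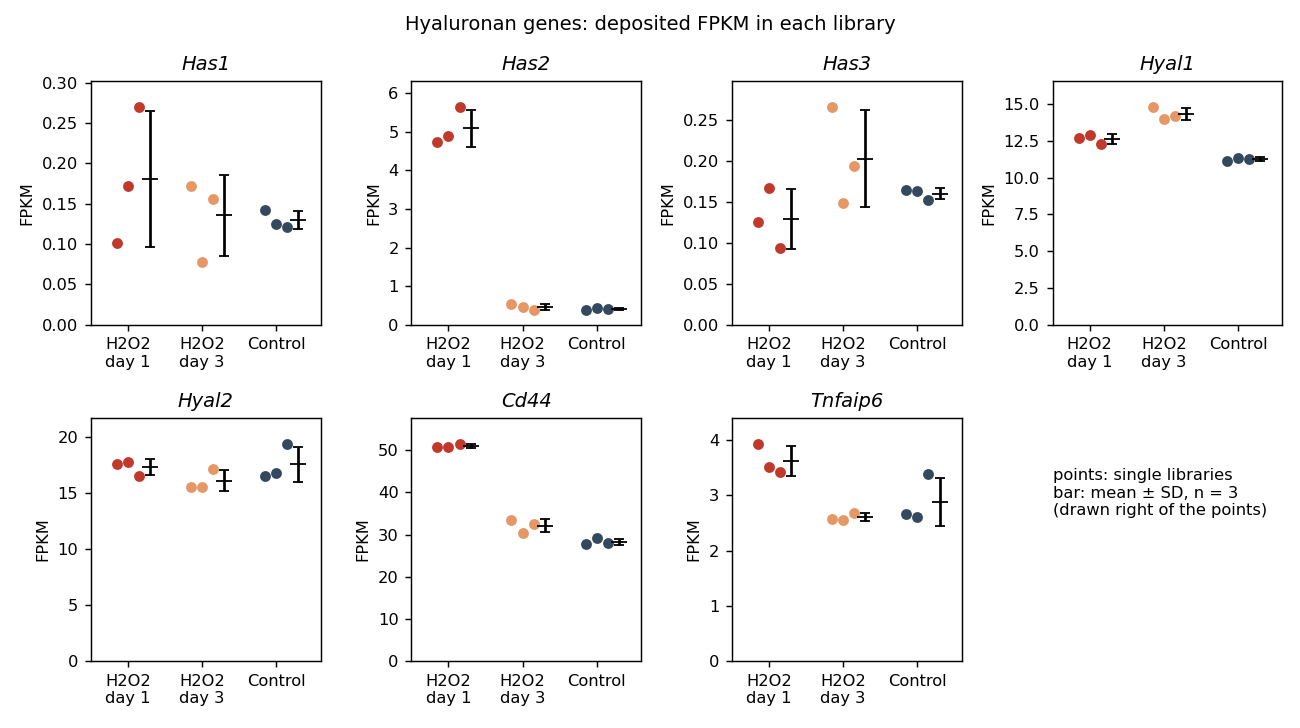
FPKM (vertical axes, each from 0) of the 7 hyaluronan genes in the 3 H2O2 day 1, 3 H2O2 day 3 and 3 control libraries; points are libraries and the bar to their right is the mean ± SD. Has2 and Cd44 stand highest on day 1, Hyal1 on day 3, and the groups overlap for Has1, Has3 and Hyal2.

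Has2 (chromosome 15, 56665627 to 56694539, minus strand, GRCm38) encodes the synthase that is essential in the mouse embryo. It had 4.74, 4.88 and 5.64 FPKM in the day 1 libraries, 0.525, 0.457 and 0.391 FPKM in the day 3 libraries, and 0.381, 0.423 and 0.396 FPKM in the control libraries. Every day 1 library was far above the other 6, while the day 3 and control libraries overlapped. In reads this was 476 to 577 on day 1, 61 to 71 on day 3 and 49 to 69 in control.
Means were 5.09 ± 0.482 FPKM on day 1 and 0.400 ± 0.0212 FPKM in control (SD, n = 3 each), a ratio of 12.7. On the log2(FPKM + 0.1) scale the difference was 3.40 (SE 0.13), and it was 2.14 with a pseudocount of 1 and 3.67 from recovered reads. Day 3 averaged 0.457 ± 0.0667 FPKM. The day 3 minus day 1 difference was -3.24 (SE 0.13), and day 3 minus control was 0.16 (SE 0.13). The last of these was -0.07 with quantile normalization, so it has no fixed direction.

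Has1 (chromosome 17, 17843323 to 17855205) and Has3 (chromosome 8, 106870242 to 106884566) encode the other two synthases. Has1 had 0.101, 0.172 and 0.270 FPKM on day 1, 0.172, 0.0783 and 0.156 FPKM on day 3, and 0.142, 0.124 and 0.121 FPKM in control, from 5 to 13 reads a library. Has3 had 0.126, 0.167 and 0.0936 FPKM on day 1, 0.266, 0.149 and 0.194 FPKM on day 3, and 0.164, 0.164 and 0.153 FPKM in control, from 13 to 49 reads.
For both genes all 3 groups overlapped, and no difference was tested.
Per length, Has2 made up 94.3% ± 1.00 of the summed FPKM of the 3 synthases on day 1, 58.0% ± 7.62 on day 3 and 58.0% ± 2.23 in control (SD, n = 3 each). That sum was 5.40 ± 0.538 FPKM on day 1, 0.796 ± 0.147 FPKM on day 3 and 0.690 ± 0.0207 FPKM in control.

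Hyal1 (chromosome 9, 107576927 to 107581710, plus strand), the lysosomal hyaluronidase, was the one member with every day 3 library above the other 6. It had 12.7, 12.9 and 12.3 FPKM on day 1, 14.8, 14.0 and 14.2 FPKM on day 3, and 11.1, 11.3 and 11.3 FPKM in control. The 3 groups did not overlap, in the order day 3, day 1, control. Day 1 minus control was 0.20 (SE 0.03), day 3 minus control 0.36 (SE 0.03) and day 3 minus day 1 0.17 (SE 0.03).
Hyal2 (chromosome 9, 107567945 to 107572779, plus strand), the hyaluronidase anchored at the cell surface, had 17.6, 17.7 and 16.5 FPKM on day 1, 15.5, 15.5 and 17.1 FPKM on day 3, and 16.5, 16.7 and 19.4 FPKM in control. All groups overlapped. Day 1 minus control was 0.01 (SE 0.06), or -0.02 without rescaling, and day 3 minus control was -0.11 (SE 0.06).
Summed over the pair, hyaluronidase FPKM was 29.9 ± 1.03 on day 1, 30.4 ± 0.884 on day 3 and 28.8 ± 1.64 in control, and Hyal1 supplied 42.2% ± 0.409 of it on day 1, 47.1% ± 1.77 on day 3 and 39.2% ± 2.00 in control (SD, n = 3 each). Summed synthase FPKM came to 18.1% ± 2.43 of summed hyaluronidase FPKM on day 1, 2.62% ± 0.481 on day 3 and 2.40% ± 0.190 in control.

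Cd44 (chromosome 2, 102811141 to 102901665, minus strand), which also binds osteopontin and matrix proteases, had the highest level of the members in every group. It had 50.6, 50.7 and 51.5 FPKM on day 1, 33.4, 30.4 and 32.5 FPKM on day 3, and 27.9, 29.1 and 28.0 FPKM in control. No 2 groups overlapped, and day 1 was highest and control lowest. Day 1 minus control was 0.88 (SE 0.03), a 1.84-fold difference, day 3 minus control was 0.19 (SE 0.03), and day 3 minus day 1 was -0.68 (SE 0.03). The FPKM are per gene, so they do not separate the splice forms of Cd44.
Tnfaip6 (chromosome 2, 52038009 to 52056686, plus strand) had 3.93, 3.52 and 3.42 FPKM on day 1, 2.58, 2.56 and 2.69 FPKM on day 3, and 2.66, 2.62 and 3.39 FPKM in control, from 126 to 171 reads a library. The lowest day 1 library lay just above the highest control library, and the day 3 libraries lay below day 1 but overlapped control. Day 1 minus control was 0.36 (SE 0.09), day 3 minus control -0.12 (SE 0.09) and day 3 minus day 1 -0.47 (SE 0.09).

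In the day 1 group the order of levels was Cd44, Hyal2, Hyal1, Has2, Tnfaip6, then Has1 and Has3, whose libraries overlapped. On day 3 and in control Tnfaip6 was above Has2, which was above Has3 and Has1, and Has3 and Has1 overlapped on day 3 but not in control. The groups did not overlap for 4 of 7 members between day 1 and control, all higher, where this held for 66.1% of all genes tested, 28.8% higher. Between day 3 and control it was 2 of 7, both higher, against 30.3% of genes, 12.5% higher, and between day 3 and day 1 it was 4 of 7, 1 higher and 3 lower, against 61.8% of genes, 33.0% higher and 28.9% lower. Nothing is read from these counts, since the members were chosen with these values known. The 3 comparisons share libraries pairwise and are not independent.

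**Figure D2:**
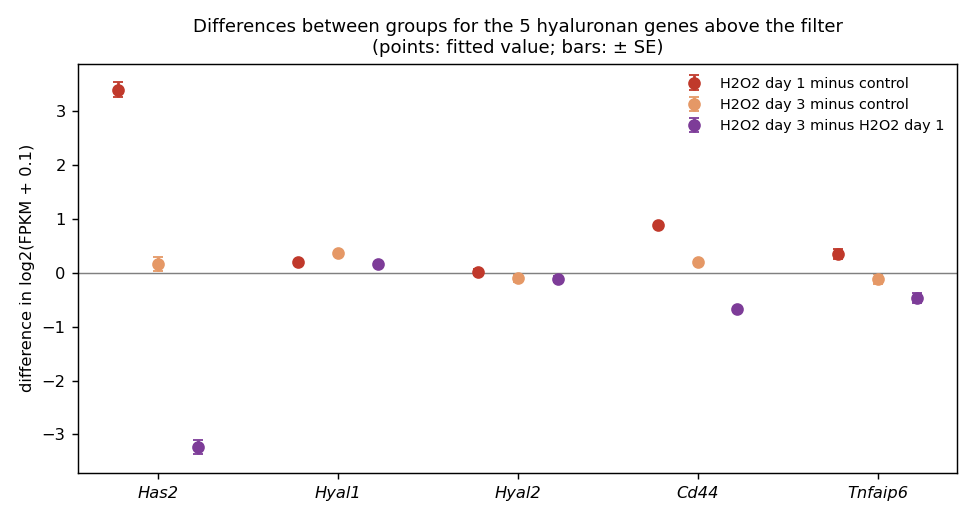
Fitted difference in log2(FPKM + 0.1) with its SE for the 5 members above the filter, in the day 1 minus control, day 3 minus control and day 3 minus day 1 comparisons. Has2 is at 3.40 on day 1 and 0.16 on day 3 against control, Cd44 at 0.88 and 0.19, and Hyal1 at 0.20 and 0.36.

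Across the 9 libraries Has2 and Cd44 had a Pearson r of 0.983 on the log2 scale, Has2 and Tnfaip6 0.839, and Hyal1 had 0.09 with Has2 and 0.26 with Cd44. These values describe 9 libraries in 3 groups that share culture and treatment. Among all genes tested, those most like Has2 were Col5a3 (r = 0.997), Actn1 (0.997) and Esyt2 (0.996). Those most like Cd44 were Asah1, Adamts4 and Rragc (0.998 each). Those most like Tnfaip6 were Prkx (0.965), E2f5 (0.962) and Prim2 (0.957). They are the highest values among 12611 genes, of which 62.2% were called on day 1 against control. How r was spread over all genes was not worked out, so no link particular to these genes is read from it.

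Overlapping gene models limit what some of these levels hold. In GENCODE M21 on GRCm38, Hyal1 shares 1920 of its exon bases, or 50.8%, with Naa80 and 159 with Hyal3, all on the same strand. The length behind the Hyal1 FPKM, 3743 bases, is close to its 3777 annotated exon bases. That behind the Naa80 FPKM, 1499 bases, is far under its 3154 annotated exon bases. It is also under the 1920 shared bases, so the Naa80 model that was counted shared fewer bases with Hyal1. The sources used here do not say how reads in shared exons were treated. Naa80 had 17.3 ± 1.29 FPKM on day 1, 20.1 ± 0.732 FPKM on day 3 and 19.4 ± 0.705 FPKM in control. Its mean was lowest on day 1, where that of Hyal1 was above control. Both genes had their highest mean on day 3, and day 3 minus day 1 was 0.21 for Naa80 and 0.17 for Hyal1. The part of shared reads in the Hyal1 level was not tested. The fall of Naa80 on day 1 (limma adjusted p = 0.0365) did not pass without day 1 replicate 1 or 3 (0.142 and 0.101) or control replicate 1 or 3 (0.111 and 0.100). It was lost in 9 of the 18 alternatives. These also included no filter (0.0787), limma-voom on recovered reads (0.0618) and only the 6 libraries compared (0.0517). The others were the replicate number as a block (0.0522) and leaving out the 2 libraries with most Rn45s (0.125). Over all 18 alternatives the adjusted p of Naa80 ran from 0.00551 to 0.142. Hyal3 was at 0.373 ± 0.0434 FPKM on day 1, 0.615 ± 0.0805 FPKM on day 3 and 0.531 ± 0.0705 FPKM in control.
In the same annotation Has2 shares 182 exon bases, 4.30% of its exons, with the antisense gene Has2os, and no strand setting is given. The length behind the Has2os FPKM, 485 bases, is also under its 1628 annotated exon bases. Has2os had 1 to 3 reads on day 1, 0 to 3 on day 3 and 2 to 5 in control. Of the other neighbours of the Hyal cluster, Tusc2 fell on day 1 (14.0 ± 1.15 FPKM on day 1, 17.7 ± 0.643 FPKM in control; limma adjusted p = 0.000578). Ifrd2 and Rassf1 did not pass on day 1 (adjusted p = 0.0705 and 0.133). On day 3 against control the 4 tested neighbours had limma adjusted p from 0.0799 for Rassf1 to 0.704 for Tusc2. Against day 1 all 4 were higher on day 3, as were 27.9% of all genes tested. The differences were 0.35 for Tusc2, 0.34 for Ifrd2, 0.25 for Rassf1 and 0.21 for Naa80.

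**Figure D3:**
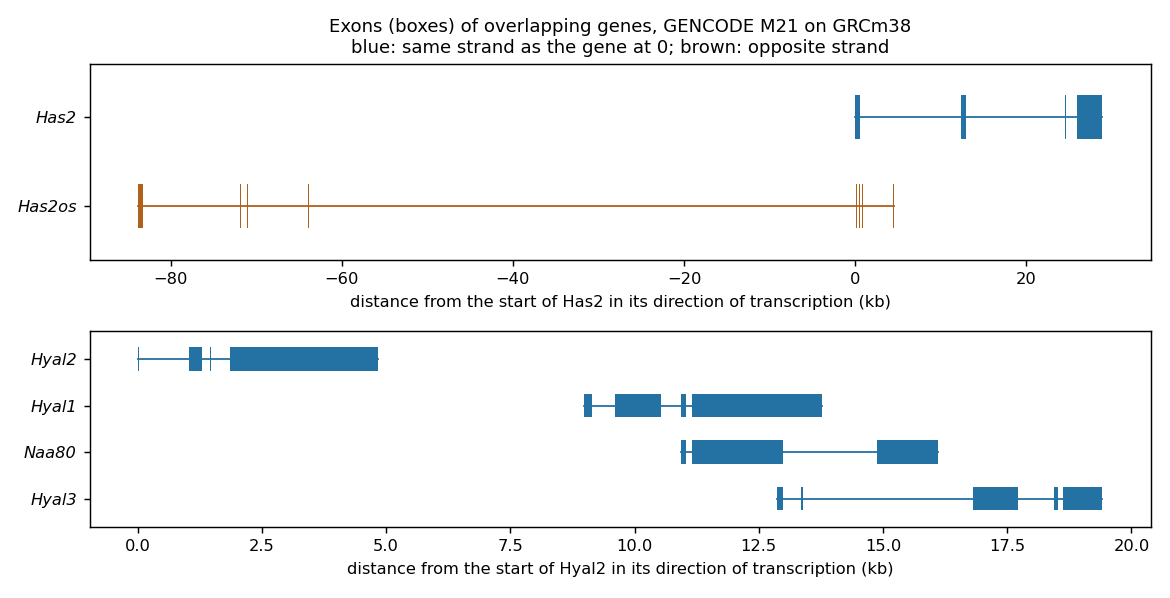
Exons (boxes) of Has2 with its antisense gene Has2os, and of Hyal2, Hyal1, Naa80 and Hyal3, by distance in kb from the start of Has2 or Hyal2. In GENCODE M21, which is drawn here, Hyal1 shares much of its exon sequence with Naa80 on the same strand. Has2 and Has2os overlap at the start of Has2 on opposite strands.

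Because the RNA is bulk, fewer cells of a type and less RNA per cell cannot be told apart, and Cd44 and the hyaluronidases are also expressed by microglia and fibroblasts. The astrocyte markers, all 9 above the filter, summed to 2049 to 2312 FPKM on day 1, 2546 to 2581 on day 3 and 2772 to 2841 in control. Of 9 tested, 6 fell and 2 rose on day 1 (limma), where 31.1% of all genes tested were called higher and 31.1% lower. Microglia and macrophage markers summed to 213 to 219 FPKM on day 1, 522 to 640 on day 3 and 524 to 569 in control, with 10 lower and 1 higher of 11 tested on day 1. Fibroblast markers (5 of 9 tested, all lower on day 1) summed to 63.3 to 75.7 FPKM on day 1, 195 to 208 on day 3 and 189 to 194 in control. Oligodendrocyte lineage markers (8 lower and 1 higher of 9 on day 1) summed to 353 to 377 FPKM on day 1, 421 to 454 on day 3 and 506 to 536 in control. Ependymal markers (4 of 5 tested, all lower on day 1) summed to 74.1 to 83.0 FPKM on day 1, 115 to 131 on day 3 and 126 to 140 in control. Mural and smooth muscle markers, of which only 2 of 6 passed the filter, summed to 981 to 1034 FPKM on day 1, 377 to 438 on day 3 and 465 to 495 in control, with 1 of the 2 higher on day 1. Endothelial markers (1 of 5 tested) summed to 11.9 to 12.6 FPKM on day 1, 14.0 to 15.2 on day 3 and 11.7 to 12.4 in control. Neuron markers (2 of 5 tested, both higher on day 1) summed to 74.1 to 78.2 FPKM on day 1, 75.6 to 76.7 on day 3 and 68.4 to 69.7 in control. In no list was a marker at 0 in all libraries. The astrocyte, microglia, fibroblast, oligodendrocyte and ependymal sums were lowest on day 1, where Has2 and Cd44 were highest, and the mural sum was highest there. Most sums rest largely on 1 gene: Gfap for astrocytes, Lyz2 for microglia, Igf2 for fibroblasts, Olig1 for the oligodendrocyte lineage, Foxj1 for ependymal cells and Cdh5 for endothelium. The mural sum was nearly all Acta2, a smooth muscle actin (996 FPKM on day 1, 405 FPKM on day 3 and 479 FPKM in control on average), while the mural marker Rgs5 did not pass on day 1 (1.43 FPKM on day 1, 1.37 FPKM in control; limma adjusted p = 0.484). The 4 mural markers under the filter were not tested. Des averaged 1.45 FPKM on day 1 and 0.329 FPKM in control, and Myh11 0.775 and 0.253 FPKM. Abcc9 averaged 0.0320 and 0.0120 FPKM. For these genes every day 1 library lay above control, while Kcnj8 overlapped (0.0670 and 0.0783 FPKM). Within the oligodendrocyte list Olig1 fell 1.22-fold on day 1 and Gpr17 12.9-fold, while Cspg4 rose 2.35-fold (limma adjusted p = 0.000194, 1.17e-09 and 4.25e-08). The part of these cells in the values above was not tested.

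The rest of the hyaluronan pathway was taken as 54 further genes in 5 lists, of which 37 passed the filter and were tested. On day 1, 21 rose, 10 fell and 6 did not pass against control, where 62.2% of all genes were called, 31.1% higher and 31.1% lower (limma, Benjamini-Hochberg adjusted p under 0.05). On day 3, 6 rose, 4 fell and 27 did not pass against control, beside 13.8% of all genes, 7.37% higher and 6.45% lower. Between day 3 and day 1, 10 were higher and 19 lower on day 3, beside 56.2% of all genes, 27.9% higher and 28.4% lower. The 21 and the 19 include Hapln1, which passed the filter only through its day 1 level.

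**Figure D4:**
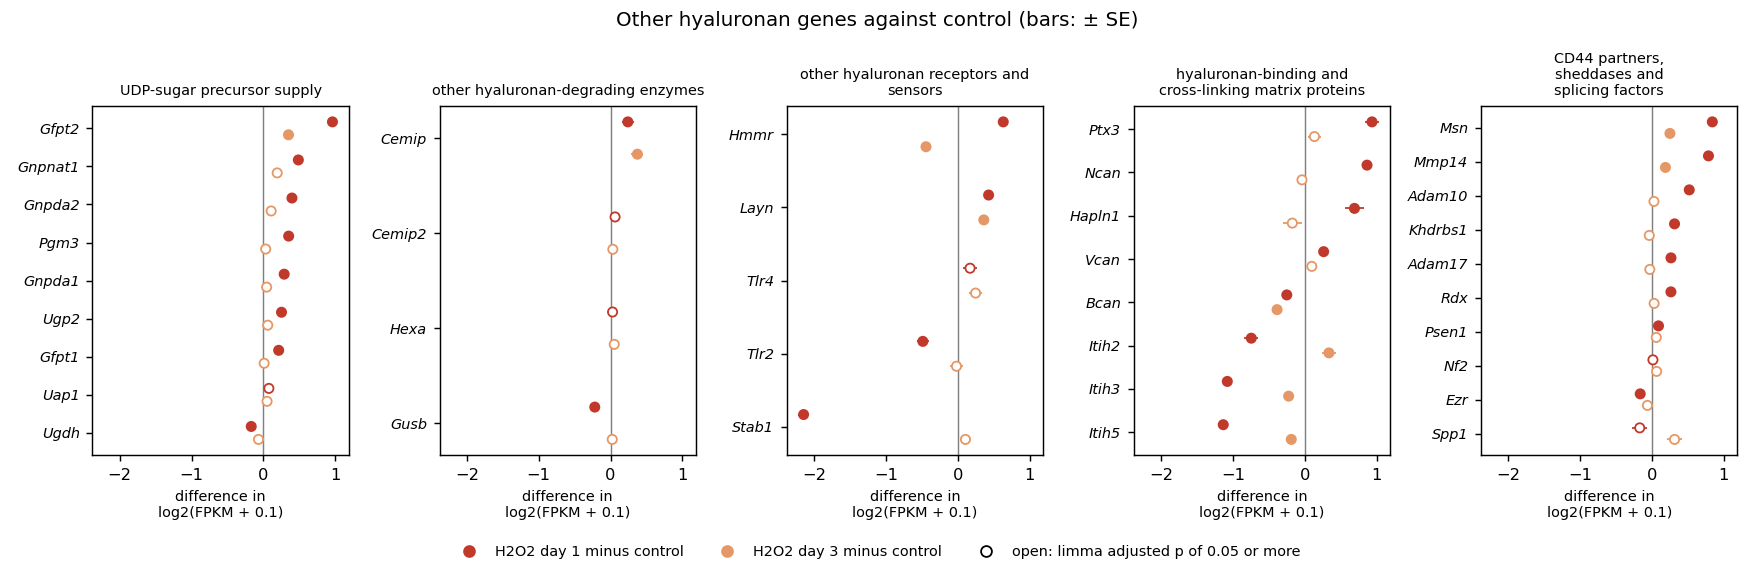
Fitted difference in log2(FPKM + 0.1) against control, with its SE, for tested genes of the 5 lists on day 1 and day 3; filled points have a limma adjusted p under 0.05. Most day 3 points lie nearer to 0 than the day 1 points of the same gene, while Hmmr and Itih2 have filled points on opposite sides of 0.

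Of the 9 genes listed for the supply of UDP sugars, 7 rose and 1 fell on day 1, where 31.1% of all genes tested rose and 31.1% fell. The list had a median difference of 0.29 beside -0.0014 for all genes tested. Gfpt2, which catalyses the first step of the hexosamine route, rose 1.95-fold (7.53 ± 0.152 FPKM on day 1, 3.91 ± 0.272 FPKM in control; limma adjusted p = 6.26e-07). Gnpnat1, which acetylates glucosamine 6-phosphate, rose 1.40-fold (adjusted p = 9.09e-05). Ugdh, the enzyme that makes UDP-glucuronate, fell by 0.17 on the log2 scale (38.7 ± 1.65 FPKM on day 1, 44.5 ± 0.741 FPKM in control; adjusted p = 0.000444). Gnpda1 and Gnpda2 were also among those that rose (1.22-fold and 1.32-fold); they run the route backwards by deaminating glucosamine 6-phosphate.
On day 3 only Gfpt2 of this list passed against control (4.96 ± 0.476 FPKM on day 3; 1.27-fold, adjusted p = 0.00664), and the list median was 0.05. Against day 1, 7 of the 9 were lower on day 3, beside 28.4% of all genes tested. Gfpt2 was lower by most (-0.61, limma adjusted p = 2.40e-05), then Pgm3 (-0.32) and Gnpnat1 (-0.29). Ugdh was 0.10 higher (adjusted p = 0.0122), a call lost without day 1 replicate 1 (0.0555; range over 18 alternatives 0.00280 to 0.0555).

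Of the other degrading enzymes 5 of 10 were tested, with a list median of 0.03 on day 1. Gusb, a lysosomal enzyme that trims sugars from the ends of the fragments, fell on day 1, with 17.9 ± 0.323 FPKM on day 1 and 21.3 ± 0.387 FPKM in control (limma adjusted p = 0.000433). Against day 1, Gusb was 0.24 higher on day 3 (adjusted p = 0.000268).
Cemip, which binds hyaluronan and promotes its breakdown outside lysosomes, had 21.9 ± 1.47 FPKM on day 1, 24.5 ± 3.28 FPKM on day 3 and 19.0 ± 1.36 FPKM in control. It rose on day 1 (0.24, limma adjusted p = 0.0297) and on day 3 (0.37, 0.0160) against control. The day 1 call was lost without day 1 replicate 3 (0.113), control replicate 1 (0.105) or control replicate 3 (0.0541), and also without rescaling (0.0608) and without the filter (0.0510); over 18 alternatives it ran from 0.00272 to 0.113. The day 3 call was lost without day 3 replicate 1 (0.0584), day 3 replicate 3 (0.0550) or control replicate 1 (0.0589), in a range from 0.000110 to 0.0589. Cemip2, also known as Tmem2, and Hexa did not pass on either day. Hyal4, Hyal5 and Spam1 were at 0 in every library.

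Of 5 other receptors and sensors tested, 2 rose and 2 fell on day 1 (median 0.17), beside 31.1% of all genes tested each way. Stab1, a scavenger receptor of macrophages, fell 4.42-fold on day 1, with 4.68 ± 0.235 FPKM on day 1, 23.0 ± 2.33 FPKM on day 3 and 21.5 ± 1.52 FPKM in control (adjusted p = 6.40e-09 for day 1 against control). It moved with the microglia and macrophage sum given above. Tlr2, a pattern receptor reported to sense hyaluronan fragments, was at 2.12 ± 0.120 FPKM on day 1 and 3.08 ± 0.222 FPKM in control (adjusted p = 0.000556). Both were higher on day 3 than on day 1, by 2.25 and 0.47 (adjusted p = 1.24e-08 and 0.000859).
Layn, the membrane receptor layilin, rose on day 1 (18.6 ± 1.56 FPKM, 1.35-fold, adjusted p = 6.05e-05) and on day 3 (18.0 ± 0.938 FPKM, 1.29-fold, 0.00205) against 14.1 ± 0.552 FPKM in control. Hmmr, a hyaluronan receptor that also works at the mitotic spindle, rose 1.55-fold on day 1 (5.55 ± 0.360 FPKM on day 1, 3.62 ± 0.186 FPKM in control; limma adjusted p = 8.73e-06) and fell 1.36-fold on day 3 (2.61 ± 0.111 FPKM on day 3; adjusted p = 0.00142).

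Hyaluronan-binding and cross-linking matrix genes split on day 1, with 4 higher and 4 lower of 8 tested (median 0.01). The lectican Ncan rose 1.82-fold (255 ± 12.9 FPKM on day 1, 143 ± 9.57 FPKM in control; adjusted p = 1.13e-07), and Ptx3, a pentraxin that joins the complexes of TSG-6 and heavy chains, rose 1.91-fold (11.8 ± 0.891 FPKM on day 1, 6.27 ± 0.862 FPKM in control; adjusted p = 8.76e-06). The link protein Hapln1 was 1.61-fold higher (1.45 ± 0.0822 FPKM on day 1, 0.882 ± 0.126 FPKM in control). It is among the 4 counted as higher, but it passed the filter only through its day 1 level, so its p-value is not given.
All 3 tested heavy-chain genes fell on day 1, where 31.1% of all genes tested did. Itih5 had 4.89 ± 0.252 FPKM on day 1 and 11.1 ± 0.115 FPKM in control (fell 2.20-fold, adjusted p = 9.95e-09), Itih3 had 30.2 ± 1.80 FPKM on day 1 and 65.3 ± 1.10 FPKM in control (2.11-fold, adjusted p = 1.55e-08), and Itih2 had 2.39 ± 0.183 FPKM on day 1 and 4.18 ± 0.533 FPKM in control (1.68-fold, adjusted p = 5.35e-05). Ambp, which encodes bikunin, the partner of the heavy chains in serum, averaged 0 FPKM on day 1, 0.00861 FPKM on day 3 and 0.0170 FPKM in control.
On day 3 against control the lectican Bcan (34.4 ± 1.08 FPKM on day 3, 45.6 ± 2.11 FPKM in control; adjusted p = 0.000357), Itih3 (55.3 ± 2.04 FPKM on day 3; 0.00620) and Itih5 (9.62 ± 0.234 FPKM on day 3; 0.0145) fell, and Itih2 rose (5.22 ± 0.244 FPKM on day 3; 0.0395). Bcan was also among the 4 that fell on day 1 (37.4 ± 2.27 FPKM on day 1, limma adjusted p = 0.000452). The Itih5 call was lost without day 3 replicate 3 (0.0634) or control replicate 1 (0.0513), in a range from 0.000243 to 0.0634. The Itih2 call was lost without day 1 replicate 2 (0.0527), day 3 replicate 1, 2 or 3 (0.120, 0.0967 and 0.0606) or control replicate 2 or 3 (0.114 and 0.130), with only the 6 libraries compared (0.0534) and without the filter (0.0770), in a range from 0.00221 to 0.130.
Against day 1, the day 3 libraries were higher for Itih2 (1.08), Itih5 (0.95) and Itih3 (0.85). They were lower for Ncan (-0.91) and Ptx3 (-0.80), and all 5 passed the threshold in limma. Hapln1 was also lower on day 3 (-0.87). Hapln1 was tested only because of its day 1 level, so its difference from day 1 is a condition of its passing the filter.

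Of 10 partners of CD44 tested, 7 were up and 1 down on day 1 (median 0.26), beside 31.1% of all genes tested each way. Moesin, encoded by Msn, ties CD44 to the actin cortex; it rose 1.79-fold (368 ± 6.45 FPKM on day 1, 210 ± 3.12 FPKM in control; adjusted p = 5.61e-09). Its relative ezrin, encoded by Ezr, fell by 0.16 on the log2 scale (141 ± 1.91 FPKM on day 1, 161 ± 2.84 FPKM in control; adjusted p = 0.000473). The membrane proteases Mmp14 and Adam10, known to cut CD44 from the surface, both rose. Mmp14 was 1.73-fold higher (123 ± 2.31 FPKM on day 1, 72.9 ± 1.33 FPKM in control; adjusted p = 2.95e-08) and Adam10 1.43-fold (55.0 ± 0.740 FPKM on day 1, 39.2 ± 1.28 FPKM in control; adjusted p = 2.13e-07).
On day 3, Msn (247 ± 7.55 FPKM, 1.19-fold, adjusted p = 0.000366) and Mmp14 (82.2 ± 4.59 FPKM, 1.14-fold, 0.00527) were still above control, while Adam10 was at 39.5 ± 0.563 FPKM (0.618). Against day 1, Mmp14 (-0.60), Msn (-0.59) and Adam10 (-0.49) were lower on day 3, and Ezr (0.10) and Spp1 (0.48) were higher. Spp1, which encodes the CD44 ligand osteopontin, did not pass against control on day 1 (163 ± 8.90 FPKM; 0.178) or day 3 (232 ± 35.4 FPKM; 0.0727), with 188 ± 19.9 FPKM in control. Esrp1, a splicing factor that favours the longer CD44 forms of epithelia, averaged 0.00720 FPKM on day 1, 0.00229 FPKM on day 3 and 0.00981 FPKM in control. Esrp2 of the same list, also under the filter, averaged 0.483 FPKM on day 1, 0.545 FPKM on day 3 and 0.336 FPKM in control.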

How the data were processed

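Poly(A) RNA of 9 astrocyte libraries was sequenced by the authors, who deposited 1 table of FPKM per gene symbol, scaled by gene length and library total for each library separately. The tools named per the submitters' processing notes are STAR 2.7.3a, cutadapt 2.6, FastQC 0.12.1 and DESeq2, and the builds are GRCm38 and mm10. The sources used here do not give the counting program, annotation, strand or filters. All 9 columns were matched to libraries by the name in each library's description. For all 20350 genes above 0, the deposited FPKM gave whole reads to within 0.01 read, with sums of 99.9% of the library totals.

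FPKM were divided by median-of-ratios factors (0.975 to 1.02), genes averaging 1 FPKM or more were kept, and log2(FPKM + 0.1) was fitted with group as the only term over all libraries in limma 3.58.1 (R 4.3.3, intensity trend, two-sided, Benjamini-Hochberg over 12611 genes, called under 0.05). The fit was also run on simulated data in which few genes changed, unlike the day 1 libraries here, so nothing is concluded from that run. Members, gene lists and the rule for named genes were chosen with earlier results of these data known. The rule took all members, up to 3 called rises and falls of each list in each comparison, the neighbours, and the 3 genes most correlated with Has2, Cd44 and Tnfaip6. Other genes with values, such as Gnpda1, Hyal3, Ambp and single markers, were chosen after their values were seen. 1 gene of the pathway lists is counted in their totals but not reported here. Alternatives covered pseudocount, filter, scaling, libraries in the fit, replicate block and limma-voom on recovered reads. Coordinates are from GENCODE M21 (GRCm38), promoters from RefSeq (GRCm38.p6). Matplotlib 3.10.9 drew the figures.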

Additional observations from a re-analysis of the deposited data

Results flagged for a closer look

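For 2 genes of the wider pathway the day 1 and day 3 differences from control passed in opposite directions and the days also differed from each other. Hmmr had 5.55 ± 0.360 FPKM on day 1, 2.61 ± 0.111 FPKM on day 3 and 3.62 ± 0.186 FPKM in control (SD, n = 3 each), and day 3 minus day 1 was -1.08 on the log2 scale (limma adjusted p = 3.63e-07). Itih2 had 2.39 ± 0.183 FPKM on day 1, 5.22 ± 0.244 FPKM on day 3 and 4.18 ± 0.533 FPKM in control, with a day 3 minus day 1 difference of 1.08 (limma adjusted p = 5.08e-06); its day 3 rise over control is the call described above as lost when any 1 of 6 libraries was left out. Both days were set against the same control libraries.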

How the results depend on the processing

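No alternative that was run turned the direction of a member whose groups did not overlap, or of a called gene of the lists taken by the rule for named genes. Each of these had 18 alternatives except Hapln1, with 15, which fell under the filter without any 1 day 1 library. Gnpda1 and Bcan on day 1 and Naa80 on day 3 against day 1 were not recomputed. Nor were the calls and counts of cell type markers, the counts of each single list, or list genes that did not pass. Has2 on day 1 ran from 2.14 (pseudocount 1) to 3.83 (quantile normalization), Cd44 from 0.84 to 0.89, Hyal1 from 0.16 to 0.21 and Tnfaip6 from 0.28 to 0.46. Hyal1 on day 3 against control ran from 0.34 to 0.37. Genes called over the whole table on day 3 against control (929 higher, 813 lower) depended on single libraries, with 534 to 922 higher and 468 to 859 lower when 1 library was left out (573 and 468 without day 3 replicate 1, 534 and 497 without day 3 replicate 3, 537 lower without control replicate 2 and 525 lower without control replicate 3). The fits with fewer libraries have fewer degrees of freedom. The 21 higher and 10 lower other hyaluronan genes on day 1 stayed between 18 and 22 and between 10 and 12. Without rescaling 3319 genes were higher and 4348 lower on day 1, and 661 and 861 on day 3. Leaving out the 2 libraries with most Rn45s, chosen after seeing the data, gave 21 and 10 other hyaluronan genes on day 1 and 8 and 4 on day 3. Deviations of same-numbered libraries from their group means were weakly correlated (from -0.08 to 0.11). With 3 libraries a group this cannot tell whether the libraries were paired. With the replicate number as a block 3943 genes were higher and 3951 lower on day 1 and 969 and 838 on day 3, with 20 higher and 11 lower other hyaluronan genes on day 1 and 7 and 4 on day 3; of the calls named above the block ended that of Naa80 on day 1 (adjusted p = 0.0522). Of 6 libraries in each comparison, 2 or 3 correlated best with their own number. Levels of Has1, Has3 and Has2os rest on few reads.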
